A study of Mus musculus with 21 samples.

Results

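The genes described here are the exchange factors that load Ras proteins with GTP, together with 1 gene for a protein that works the other way: Rasgrp1, Rasgrp2, Rasgrp3, Rasgrp4, Sos1, Sos2, Rasgrf2 and Rasa1. They are 8 of the 47069 gene identifiers in the count table, found by their symbols. The genes were chosen by measured values of the same libraries: Rasgrp1 and Rasgrp3 moved apart when TNF was added to IL-4 and IL-13, and Rasgrp1 was high 6 h after IL-4 and IL-13. For this pair every comparison that includes a group with IL-4 and IL-13 is therefore a description, with no test. For the other 6 genes this holds where IL-4 and IL-13 with TNF are set against IL-4 and IL-13 alone.

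RNA was sequenced from macrophages that M-CSF had grown out of bone marrow; the donors were wild-type C57BL/6 mice aged 8 to 10 weeks. The cells received IL-4 and IL-13 with TNF (groups IL_TNF_6h and IL_TNF_24h), IL-4 and IL-13 alone (IL_6h and IL_24h) or TNF alone (TNF_6h and TNF_24h), at 10 ng/ml, for 6 or 24 h. The untreated group (Ctrl_0h) was taken at 0 h, so a comparison with it also carries the time in culture. There were 3 libraries in each of 7 groups, and the labels do not say whether these came from separate cultures or animals, so p-values measure only the spread between them.

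Ras proteins are switches that signal while they hold GTP. Exchange factors help them drop GDP and take up GTP, whereas GTPase-activating proteins such as the product of Rasa1 speed the return to the GDP form. RasGRP proteins are recruited to membranes by diacylglycerol, Sos proteins are brought to receptors by the adaptor Grb2, and RasGRF proteins respond to calcium through calmodulin; RasGRP1 is best known from T cells, RasGRP3 from B cells and macrophages, RasGRP2 from platelets and RasGRP4 from mast cells and neutrophils.

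The promoters of the pair with opposite changes are shown first, as stored by RefSeq for GRCm38.p6, from 250 bases before to 50 bases after each start. Rasgrp1 lies on the minus strand at chr2:117279983-117342877, and its window is chr2:117342828-117343127. Rasgrp3 lies on the plus strand at chr17:75435870-75529054 and has 2 windows, chr17:75435655-75435954 and chr17:75465288-75465587. Capitals mark the only match to the motifs searched.
Rasgrp1: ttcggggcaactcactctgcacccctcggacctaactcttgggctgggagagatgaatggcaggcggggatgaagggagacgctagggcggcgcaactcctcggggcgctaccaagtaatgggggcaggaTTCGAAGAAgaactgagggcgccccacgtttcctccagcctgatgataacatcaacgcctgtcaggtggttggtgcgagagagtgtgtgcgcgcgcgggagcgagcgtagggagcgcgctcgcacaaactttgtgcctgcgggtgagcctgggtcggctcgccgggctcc
Rasgrp3 window 1: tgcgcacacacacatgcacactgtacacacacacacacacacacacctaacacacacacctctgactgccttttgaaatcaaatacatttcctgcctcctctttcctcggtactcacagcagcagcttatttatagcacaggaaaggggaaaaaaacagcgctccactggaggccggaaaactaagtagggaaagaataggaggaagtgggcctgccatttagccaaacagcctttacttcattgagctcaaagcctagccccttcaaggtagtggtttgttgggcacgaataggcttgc
Rasgrp3 window 2: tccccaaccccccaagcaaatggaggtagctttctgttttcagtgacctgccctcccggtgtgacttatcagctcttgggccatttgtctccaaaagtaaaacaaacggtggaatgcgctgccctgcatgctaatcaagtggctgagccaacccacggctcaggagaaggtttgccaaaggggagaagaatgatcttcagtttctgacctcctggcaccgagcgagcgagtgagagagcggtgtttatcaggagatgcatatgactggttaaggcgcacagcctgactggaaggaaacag

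The motifs were TTC and GAA with 4 bases between them, the spacing that STAT6 prefers, TTCNNNGAA, with 3 bases between them, the spacing of other STAT factors, and the NF-kB motif, each on both strands. The Rasgrp1 window held 1 TTCNNNGAA match, TTCGAAGAA, at -120 to -112 from the start, and 8.3% of 32851 mouse windows of this length hold that motif. Neither Rasgrp3 window held any of the 3 motifs. Of the 8 genes, 7 had a window. The first of the 2 Rasgrp2 windows held overlapping NF-kB matches, and 8.46% of all windows hold at least 1 match to that motif. The windows of Sos1, Sos2, Rasgrf2 and Rasa1 held none of the 3 motifs. The motif with 4 bases between, present in 6.95% of all windows, was in none of the 9 windows of these genes. The Rasgrp windows also differed in base composition: that of Rasgrp1 was 63.7% GC with 26 CpG dinucleotides, against 48.3% with 5 and 52.7% with 9 in the Rasgrp3 windows.

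The libraries held 28063252 to 48654300 counts. The 7 macrophage markers were detected in every group, with a summed level of 11570 to 39910 CPM, and no list of markers of 7 other cell types exceeded 15.8 CPM in any library. Ctrl_0h replicate 2 stood apart: counts were seen for 27761 genes in it, against 16996 to 20631 in the other 20 libraries. Xist, Ddx3y and Ifi202b divided the libraries into 3 sets, namely IL_TNF_6h with IL_6h, IL_TNF_24h with IL_24h, and the TNF groups with Ctrl_0h; comparisons across sets therefore cannot be told apart from a difference between sets. Levels below are counts scaled to library totals after TMM normalization (CPM), as mean ± SD with n = 3, and changes are log2 fold changes ± standard error. Calls were made at 0.05 on Benjamini-Hochberg adjusted p from the quasi-likelihood test of edgeR over 15581 genes.

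Rasgrp1 was higher and Rasgrp3 lower whenever TNF was added to IL-4 and IL-13. At 6 h Rasgrp1 stood at 61.6, 63.2 and 73.1 CPM in IL_TNF_6h, against 25.7, 32.7 and 25.8 CPM in IL_6h. At 24 h it stood at 26.0, 18.4 and 15.7 CPM in IL_TNF_24h, against 3.27, 4.76 and 2.77 CPM in IL_24h. The groups did not overlap at either time, and the log2 fold changes were 1.23 ± 0.255 at 6 h and 2.48 ± 0.274 at 24 h, or 2.35-fold and 5.58-fold. IL_TNF_24h replicate 1 was the highest of its group, and without it the 24 h change was 2.25.

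For Rasgrp3 the levels were 4.50, 4.21 and 5.39 CPM in IL_TNF_6h, against 27.9, 38.5 and 28.7 CPM in IL_6h. They were 11.5, 15.6 and 15.1 CPM in IL_TNF_24h, against 70.8, 74.5 and 73.9 CPM in IL_24h. Every library with TNF lay below every library without it, by -2.75 ± 0.156 at 6 h and -2.38 ± 0.15 at 24 h on the log2 scale, which is 6.73-fold and 5.2-fold lower. Leaving out any 1 library gave -2.86 to -2.58 at 6 h and -2.45 to -2.25 at 24 h.

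**Figure D1:**
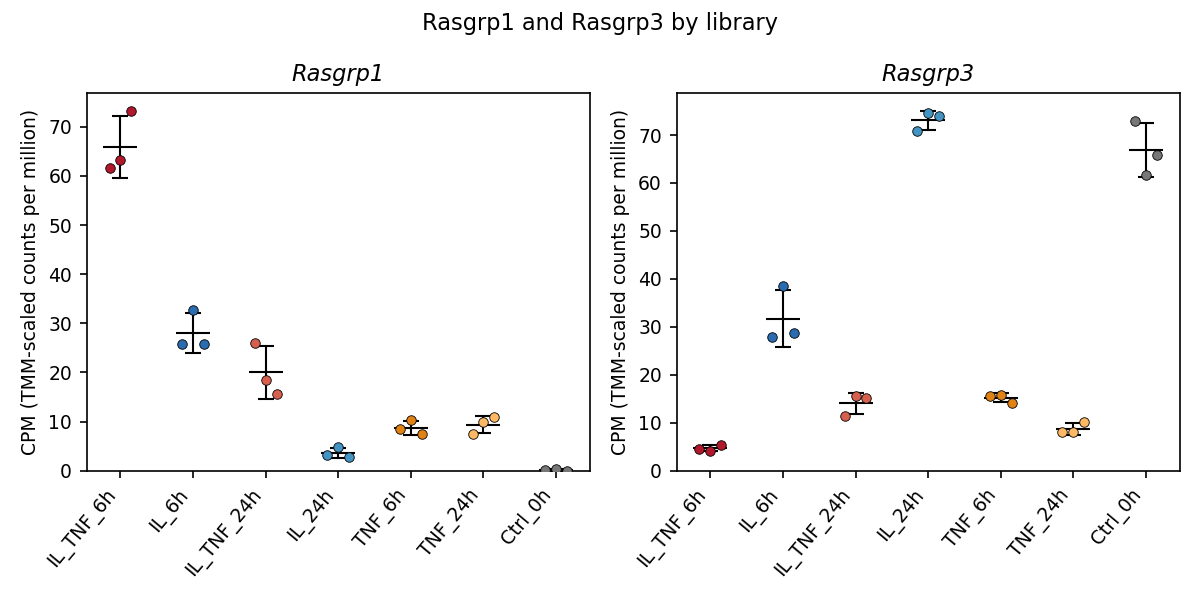
Level of Rasgrp1 (left) and Rasgrp3 (right) in CPM on a linear axis from 0; points are the 3 libraries of each group, the long bar is their mean and the error bar the SD. Rasgrp1 peaked at 61.6 to 73.1 CPM in IL_TNF_6h, where Rasgrp3 was lowest at 4.21 to 5.39 CPM.

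These 2 contrasts chose the pair, so they are set only against the background: the groups did not overlap for 27.2% of all 15581 genes at 6 h (12.9% higher, 14.2% lower) and for 36.4% at 24 h (17.5% higher, 18.8% lower). Among the 8 genes, 1 was higher and 2 were lower without overlap at 6 h (Rasgrp1, and Rasgrp3 with Rasa1), and 1 higher and 4 lower at 24 h (Rasgrp1, and Rasgrp3, Rasgrp4, Rasgrf2 and Rasa1). The median over the 8 was -0.37 at 6 h and -0.62 at 24 h, beside -0.01 and 0.00 over all genes tested. In a bulk sample, fewer cells with a transcript and less of it per cell cannot be told apart.

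TNF alone, a contrast that was not used to choose the pair, gave the same 2 directions. It shares the Ctrl_0h libraries with IL_6h against Ctrl_0h, by which Rasgrp1 was picked. The Rasgrp1 p-values below are therefore not independent of that choice. Rasgrp1 had 8.41, 10.2 and 7.53 CPM in TNF_6h and 7.45, 9.87 and 10.9 CPM in TNF_24h, against 0.214, 0.304 and 0 CPM in Ctrl_0h. Untreated macrophages thus held almost no Rasgrp1, 17 counts over 3 libraries. It rose by 5.62 ± 0.406 at 6 h and 5.73 ± 0.405 at 24 h on the log2 scale, with edgeR adjusted p = 2.33e-09 and 1.05e-09, and no TNF library overlapped an untreated one. Since the control level rests on so few counts, leaving out 1 library moved the changes between 5.08 and 6.19 at 6 h and between 5.19 and 6.29 at 24 h.

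Rasgrp3 had 15.6, 15.9 and 14.2 CPM in TNF_6h and 8.12, 7.98 and 10.2 CPM in TNF_24h, against 72.9, 61.7 and 65.8 CPM in Ctrl_0h. It fell by 2.13 ± 0.149 at 6 h and 2.93 ± 0.155 at 24 h on the log2 scale (edgeR adjusted p = 1.53e-09 and 2.18e-11), again with no overlap. Between the 2 times under TNF it fell further, by 0.80 ± 0.149 in TNF_24h against TNF_6h (adjusted p = 0.000528), whereas Rasgrp1 stood 0.10 ± 0.264 apart with overlapping libraries (adjusted p = 0.83).

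Among the 8 genes, edgeR called 1 higher and 3 lower in TNF_6h against Ctrl_0h, and 2 higher and 3 lower in TNF_24h against Ctrl_0h. Over all genes tested 39.3% were called at 6 h (18.8% higher, 20.5% lower) and 45.3% at 24 h (20.9% higher, 24.4% lower), so the share of the 8 genes called was near the background. In TNF_24h against TNF_6h, 1 of the 8 was called higher and 1 lower, beside 23.6% of all genes (12.7% higher, 10.9% lower).

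IL-4 and IL-13 alone moved the 2 genes in a different order over time, in libraries of other sets than the untreated ones. Rasgrp1 averaged 28.0 ± 4.0 CPM in IL_6h and 3.60 ± 1.03 CPM in IL_24h, against 0.173 ± 0.156 CPM in Ctrl_0h. The log2 differences from Ctrl_0h, as a description, were 7.31 ± 0.401 at 6 h and 4.34 ± 0.418 at 24 h. IL_24h lay below IL_6h by -2.97 ± 0.278, with all 3 later libraries under all 3 earlier ones.

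Rasgrp3 averaged 31.7 ± 5.95 CPM in IL_6h and 73.1 ± 2.01 CPM in IL_24h, against 66.8 ± 5.67 CPM in Ctrl_0h. Its level in IL_6h stood below Ctrl_0h by -1.08 ± 0.144, while IL_24h differed from Ctrl_0h by 0.13 ± 0.141 with overlapping libraries. IL_24h exceeded IL_6h by 1.21 ± 0.144, again as a description. The 2 genes thus ran in opposite directions between 6 and 24 h of IL-4 and IL-13, and whether this comes with time or with the set of libraries cannot be told apart.

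Among the other 6 genes, 3 were called higher and 2 lower in IL_6h against Ctrl_0h, beside 64.5% of all genes (32.8% higher, 31.6% lower). In IL_24h against Ctrl_0h 3 of the 6 were called higher and 2 lower, beside 64.3% of all genes (31.7% higher, 32.6% lower). In IL_24h against IL_6h 1 of the 6 was called, Rasgrp4, which was lower, beside 24.0% of all genes (12.2% higher, 11.8% lower).

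Ordered by group means, Rasgrp1 ran from Ctrl_0h through IL_24h, TNF_6h, TNF_24h, IL_TNF_24h and IL_6h to IL_TNF_6h. In that order the libraries of TNF_24h and TNF_6h overlapped, as did those of IL_6h and IL_TNF_24h; the other neighbours did not. Rasgrp3 ran from IL_TNF_6h through TNF_24h, IL_TNF_24h, TNF_6h, IL_6h and Ctrl_0h to IL_24h, with overlap between TNF_6h and IL_TNF_24h and between IL_24h and Ctrl_0h. Over the 21 libraries, which share groups and sets, the log levels of Rasgrp1 and Rasgrp3 had r = -0.71, as a description. The lowest value among the pairs of the 8 genes was -0.769, for Rasgrp4 with Sos2.

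The Rasgrp1 level with all 3 cytokines was above the sum of the levels with IL-4 and IL-13 and with TNF. At 6 h it averaged 65.9 CPM in IL_TNF_6h, against a sum of 36.8 CPM (28.0 in IL_6h and 8.72 in TNF_6h). At 24 h it averaged 20.05 CPM in IL_TNF_24h, against 13.0 CPM (3.60 in IL_24h and 9.39 in TNF_24h). The sums join libraries of 2 sets and were not tested. On the log2 scale, the effect of TNF on Rasgrp1 with IL-4 and IL-13 minus that without them was -4.39 ± 0.498 at 6 h and -3.25 ± 0.516 at 24 h, so the smaller fold change went with the larger absolute level. The part without IL-4 and IL-13 rests on 17 Rasgrp1 counts in Ctrl_0h. With 1 library left out, the Rasgrp1 difference spanned -4.95 to -3.85 at 6 h and -3.81 to -2.71 at 24 h. For Rasgrp3 the same difference was -0.62 ± 0.207 at 6 h and 0.55 ± 0.205 at 24 h.

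Put on a scale per length, the make-up of the 4 Rasgrp genes turned over where TNF was added to IL-4 and IL-13. In that comparison the ranges of their sum overlapped at 6 h. Rasgrp1 held 65.3 ± 4.80% of the summed CPM per kb in IL_TNF_6h, against 27.0 ± 3.34% in IL_6h, and 42.5 ± 10.2% in IL_TNF_24h, against 3.50 ± 0.92% in IL_24h. Rasgrp3 held 5.29 ± 0.608% in IL_TNF_6h, against 34.7 ± 5.85% in IL_6h, and 34.2 ± 6.19% in IL_TNF_24h, against 81.1 ± 0.796% in IL_24h. In the untreated cells Rasgrp3 with 54.0% and Rasgrp4 with 45.0% made up nearly all of the sum, and Rasgrp1 0.125%.

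The sum itself was 18.0 ± 0.425 CPM per kb in IL_TNF_6h, against 18.5 ± 0.997 in IL_6h, and 8.38 ± 0.452 in IL_TNF_24h, against 18.3 ± 0.556 in IL_24h. In TNF_6h it was 9.26 ± 0.648 and in TNF_24h 9.01 ± 0.41, against 25.1 ± 1.22 in Ctrl_0h. At 6 h the ranges with and without TNF overlapped under IL-4 and IL-13, at 24 h they did not. Lengths are merged exons of 5598 bases for Rasgrp1, 12384 for Rasgrp2, 4925 for Rasgrp3 and 6359 for Rasgrp4, which need not be the isoforms used.

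**Figure D2:**
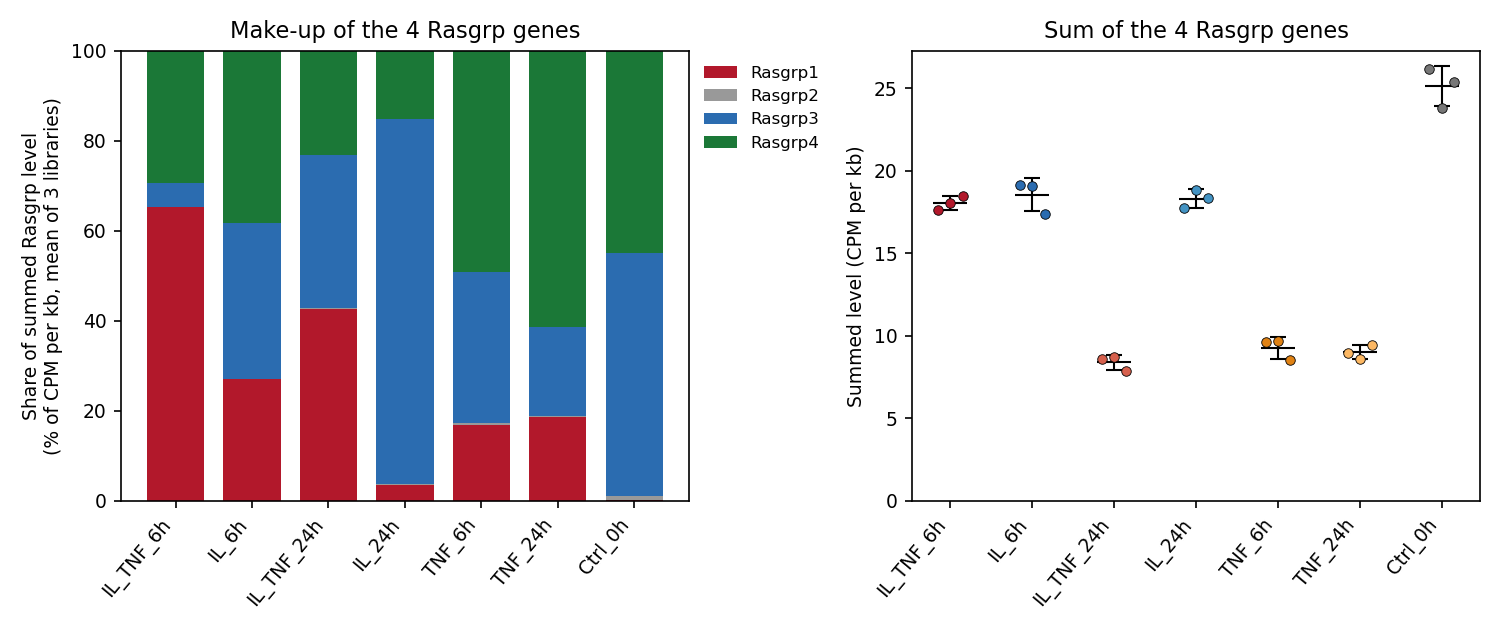
Left, share of each Rasgrp gene in the sum of the 4, in % of CPM per kb, mean of 3 libraries per group; right, that sum in CPM per kb, with points for libraries, a bar for the mean and the SD. The Rasgrp1 share was 65.3% in IL_TNF_6h, against 27.0% in IL_6h, while the sums there were 18.0 and 18.5 CPM per kb.

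Rasgrp4 was lower than in untreated cells in every treated group. It had 36.1, 37.5 and 27.2 CPM in IL_TNF_6h, against 56.6, 34.3 and 44.2 CPM in IL_6h, and these libraries overlapped. It had 10.0, 14.2 and 12.6 CPM in IL_TNF_24h, against 17.4, 18.1 and 17.8 CPM in IL_24h, without overlap. The changes, given as a description, were -0.42 ± 0.158 and -0.53 ± 0.161.

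Against the 71.9, 67.8 and 75.9 CPM of Ctrl_0h, Rasgrp4 averaged 29.0 ± 2.19 CPM in TNF_6h and 35.2 ± 2.57 CPM in TNF_24h. It fell by 1.31 ± 0.16 and 1.03 ± 0.159 on the log2 scale (edgeR adjusted p = 2.17e-06 and 2.92e-05). In IL_24h, at 17.8 ± 0.374 CPM, it was below IL_6h, at 45.0 ± 11.2 CPM, by -1.34 ± 0.161 (adjusted p = 3.75e-06), a comparison across sets of libraries. Markers of mast cells and basophils, cells known for Rasgrp4, summed to 3.88 to 5.90 CPM in TNF_6h and 3.10 to 3.87 CPM in TNF_24h, against 6.20 to 9.10 CPM in Ctrl_0h. They summed to 2.11 to 2.28 CPM in IL_TNF_6h, against 2.31 to 2.45 CPM in IL_6h, and to 0.774 to 1.58 CPM in IL_TNF_24h, against 3.05 to 3.98 CPM in IL_24h. In IL_24h they were thus above IL_6h, where Rasgrp4 was below it. Most of each sum was Kit. With TNF alone Kit averaged 4.78 ± 0.96 CPM in TNF_6h and 3.29 ± 0.51 CPM in TNF_24h, against 6.99 ± 0.93 CPM in Ctrl_0h. Cpa3 went the other way in TNF_6h, at 0.339 ± 0.26 CPM, against 0.153 ± 0.015 CPM in Ctrl_0h. Mcpt8 and Tpsab1 had lower means there, at 0.0115 ± 0.0199 and 0.0573 ± 0.0992 CPM, against 0.0404 ± 0.0357 and 0.361 ± 0.625 CPM in Ctrl_0h. Mcpt8 held 1 count in TNF_6h and 4 in Ctrl_0h, and the Tpsab1 counts of Ctrl_0h were all in replicate 2. Fcer1a was at 0 in all 21 libraries, and the part of mast cells and basophils in the Rasgrp4 result was not tested. The Rasgrp4 locus overlaps Fam98c, whose reads may be shared with it where strand was not used in counting.

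Rasgrp2, the exchange factor for Rap1 in platelets, was near the lower limit of detection, with 475 counts in all 21 libraries and 203 of them in Ctrl_0h replicate 2. It had 0.469, 0.358 and 1.07 CPM in TNF_6h and 0.243, 0.315 and 0.364 CPM in TNF_24h, against 0.534, 6.86 and 1.01 CPM in Ctrl_0h. All 6 treated groups were called lower than Ctrl_0h, by -2.15 ± 0.716 in TNF_6h (edgeR adjusted p = 0.0228) to -3.88 ± 0.786 in IL_TNF_6h (adjusted p = 0.000238). Without that library the change was -0.29 in TNF_6h (adjusted p = 0.738), -1.32 in TNF_24h (0.0779) and -1.0 in IL_24h (0.122), and -1.70 in IL_6h (0.0144), -2.03 in IL_TNF_6h (0.00504) and -1.70 in IL_TNF_24h (0.0146). With and without TNF under IL-4 and IL-13 it stayed between 0.140 and 0.604 CPM in all 12 libraries.

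Rasgrf2, the calcium-responsive exchange factor, had 130 counts in all libraries, of which 43 were in Ctrl_0h replicate 2. In IL_TNF_24h it had 0 counts, against 16 in IL_24h and 51 in Ctrl_0h. With a floor of 3 counts over the group, the level was 4.39-fold above that floor in IL_24h and 20.8-fold above it in Ctrl_0h. The counting error of the 16 and 51 counts is left out, so these ratios are not lower bounds. Without Ctrl_0h replicate 2, the other untreated libraries held 8 counts and the ratio for Ctrl_0h was 4.69-fold. Outside Ctrl_0h replicate 2 no library exceeded 0.331 CPM, and TNF_24h and IL_6h lay above rather than below Ctrl_0h once that library was left out (0.14 and 0.87 on the log2 scale). Both low genes passed the filter on low counts, as all 8 did.

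**Figure D3:**
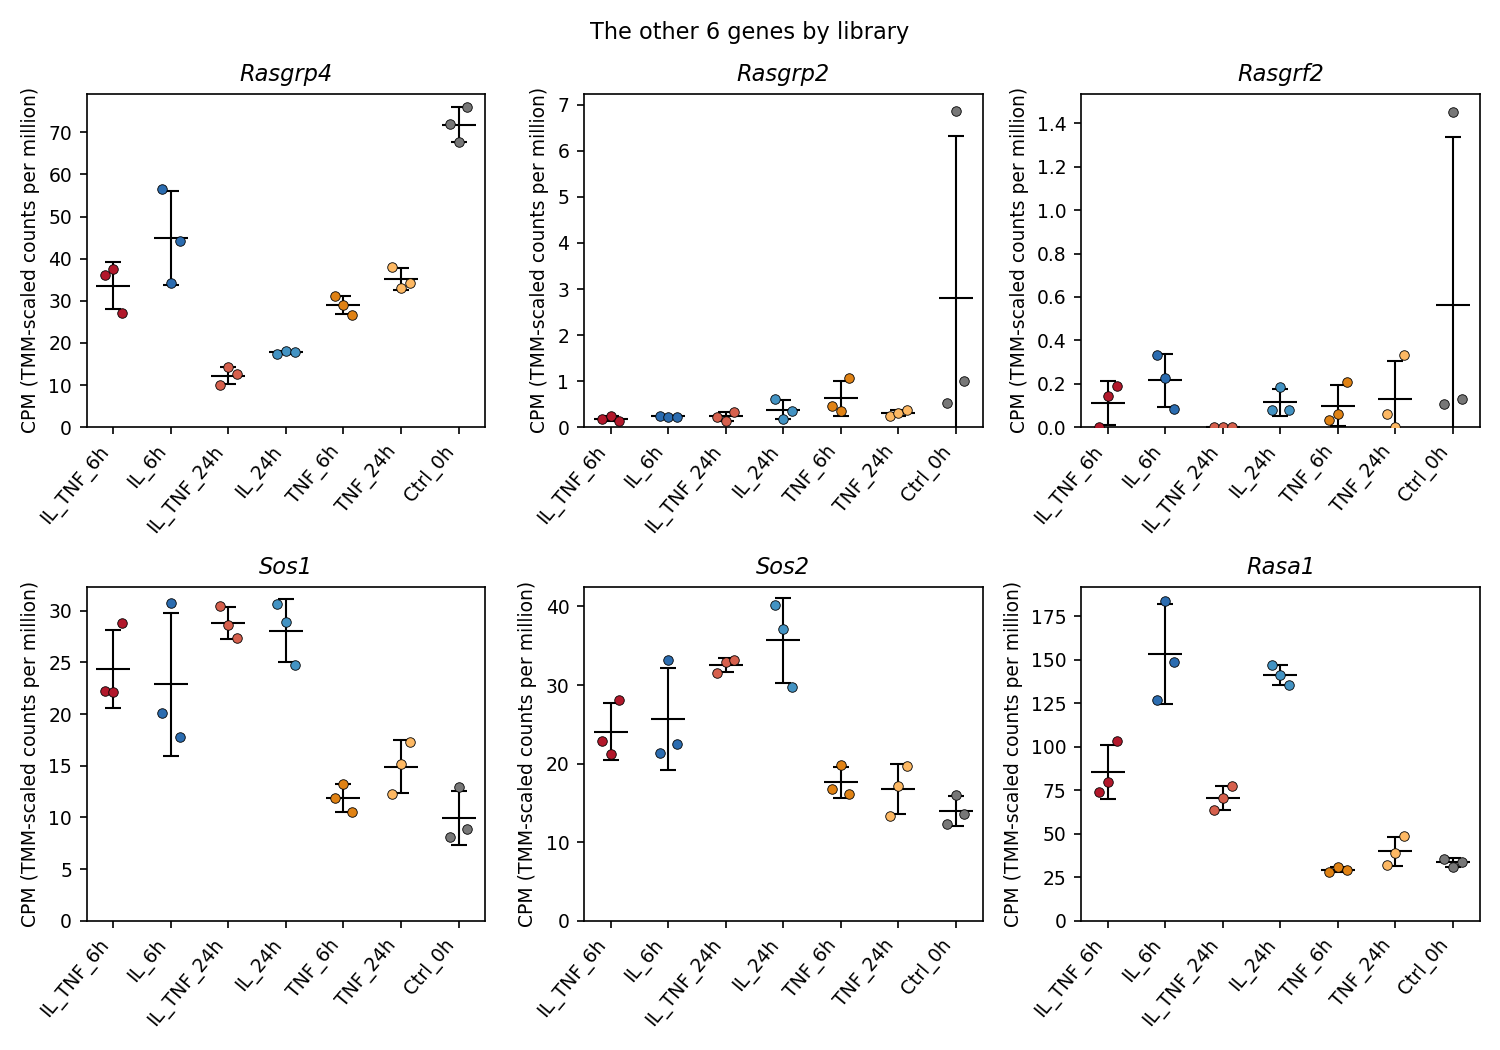
Level of the other 6 genes in CPM on linear axes from 0, each with its own scale; points are libraries, the long bar is the mean of 3 and the error bar the SD, cut at 0. Rasa1 was at 73.9 to 103 CPM in IL_TNF_6h, against 127 to 184 CPM in IL_6h, while the Ctrl_0h means of Rasgrp2 and Rasgrf2 rest on 1 library.

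Sos1 and Sos2 are the exchange factors that act with Grb2 downstream of receptors. They did not follow Rasgrp1 or Rasgrp3 where TNF was added to IL-4 and IL-13. Sos1 averaged 24.4 ± 3.82 CPM in IL_TNF_6h, against 22.9 ± 6.92 CPM in IL_6h, and 28.8 ± 1.54 CPM in IL_TNF_24h, against 28.1 ± 3.03 CPM in IL_24h. Sos2 averaged 24.1 ± 3.64 CPM in IL_TNF_6h, against 25.7 ± 6.53 CPM in IL_6h, and 32.6 ± 0.881 CPM in IL_TNF_24h, against 35.7 ± 5.36 CPM in IL_24h. The groups with and without TNF overlapped for both genes at both times, and the 4 log2 differences lay between -0.13 and 0.09.

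Both were higher with IL-4 and IL-13 than in untreated cells. Sos1 was higher by 1.20 ± 0.203 in IL_6h and 1.5 ± 0.204 in IL_24h against 9.97 ± 2.60 CPM in Ctrl_0h (edgeR adjusted p = 4.06e-05 and 3.71e-06). Sos2 was higher by 0.88 ± 0.18 in IL_6h and 1.35 ± 0.181 in IL_24h against 14.0 ± 1.91 CPM in Ctrl_0h (adjusted p = 0.000289 and 2.89e-06). These comparisons cross the sets of libraries. With TNF alone the changes of Sos2 were 0.33 ± 0.18 and 0.26 ± 0.18 (adjusted p = 0.153 and 0.251).

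Sos1 was at 14.9 ± 2.55 CPM in TNF_24h, a change of 0.58 ± 0.203 against Ctrl_0h (edgeR adjusted p = 0.026). That call was lost without Ctrl_0h replicate 1 or 3 or TNF_24h replicate 2 or 3 (adjusted p = 0.111, 0.0866, 0.0621 and 0.114). In TNF_6h the change of Sos1 was 0.26 ± 0.204 (adjusted p = 0.336). Across the 21 libraries the log levels of Sos1 and Sos2 had r = 0.949, the highest value among the pairs of the 8 genes, as a description. Both loci overlap other genes, Sos1 with Arhgef33 and Sos2 with predicted genes.

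Rasa1, the GTPase-activating protein, was lower where TNF was added to IL-4 and IL-13. It had 73.9, 79.8 and 103 CPM in IL_TNF_6h, against 127, 184 and 149 CPM in IL_6h. It had 63.6, 70.4 and 77.5 CPM in IL_TNF_24h, against 147, 141 and 136 CPM in IL_24h. No library with TNF reached one without it, and the changes were -0.84 ± 0.155 and -1.0 ± 0.156, as a description. Per length, its mean level was above that of each of the other genes in IL_6h and IL_24h, at 19.6 and 18.0 CPM per kb, against at most 7.08 for Rasgrp4 in IL_6h and 14.8 for Rasgrp3 in IL_24h.

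Against 33.5 ± 2.38 CPM in Ctrl_0h, Rasa1 was higher by 2.19 ± 0.161 in IL_6h and 2.08 ± 0.161 in IL_24h (edgeR adjusted p = 1.53e-09 and 3.42e-09), across sets of libraries. TNF alone left it at 29.3 ± 1.52 CPM in TNF_6h and 39.9 ± 8.42 CPM in TNF_24h, changes of -0.19 ± 0.157 and 0.25 ± 0.156 (adjusted p = 0.348 and 0.197). TNF_24h exceeded TNF_6h by 0.45 ± 0.157 (adjusted p = 0.0453), a call lost when any 1 of 5 of the 6 libraries was left out, with changes of 0.28 to 0.49 and adjusted p = 0.0696 to 0.251; it held without TNF_24h replicate 1. The effect of TNF with IL-4 and IL-13 minus that without was -0.65 ± 0.22 at 6 h and -1.26 ± 0.22 at 24 h, a description.

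**Figure D4:**
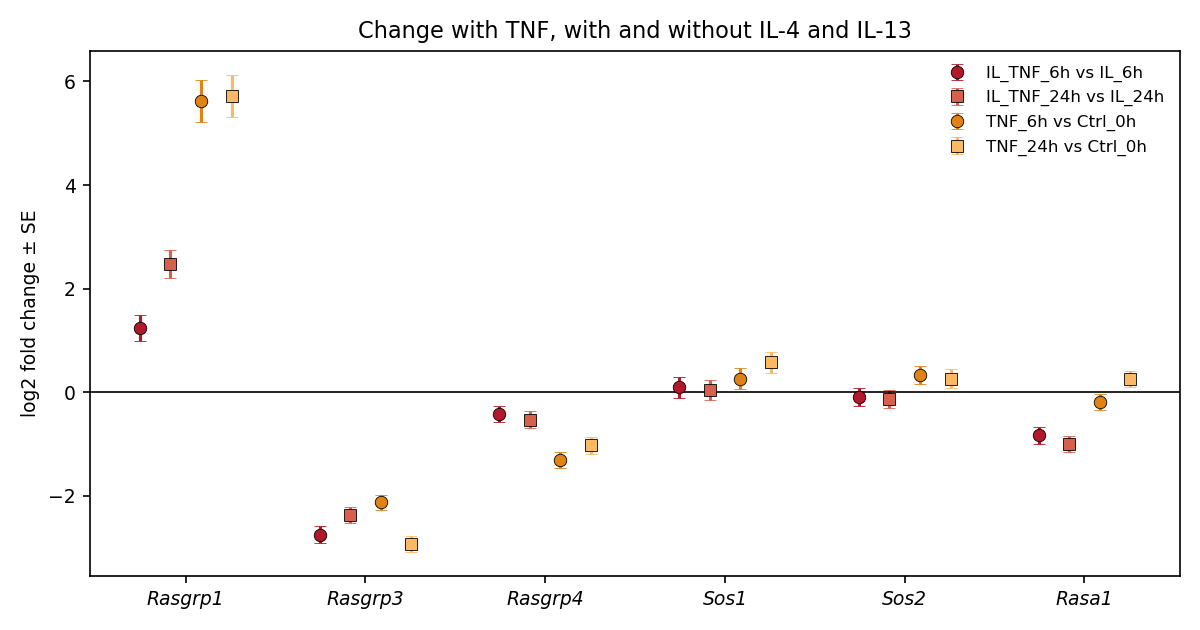
Log2 fold change ± standard error with TNF for 6 of the genes, with IL-4 and IL-13 (IL_TNF_6h against IL_6h, IL_TNF_24h against IL_24h) and without (TNF_6h and TNF_24h against Ctrl_0h); Rasgrp2 and Rasgrf2 are left out for their low counts. Rasgrp1 was above 0 and Rasgrp3 below 0 in all 4, and Rasa1 was at -0.84 and -1.0 with IL-4 and IL-13, against -0.19 and 0.25 without.

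In the groups with all 3 cytokines, edgeR called 3 of the 6 genes other than the pair higher and 2 lower in IL_TNF_6h against Ctrl_0h, beside 67.2% of all genes (33.8% higher, 33.4% lower). It called 3 higher and 3 lower in IL_TNF_24h against Ctrl_0h, beside 65.3% (33.0% higher, 32.3% lower). As a description, the log2 differences from Ctrl_0h in IL_TNF_6h and IL_TNF_24h were 8.54 ± 0.407 and 6.82 ± 0.401 for Rasgrp1, and -3.83 ± 0.162 and -2.25 ± 0.149 for Rasgrp3. These comparisons cross the sets of libraries and share the untreated libraries with those above.

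Some markers of other cells were higher, and some lower, beside these results. The 4 dendritic cell markers summed to 4.89 to 5.72 CPM in IL_TNF_6h, against 2.10 to 2.96 CPM in IL_6h, and to 5.12 to 15.8 CPM in IL_TNF_24h, against 1.87 to 3.24 CPM in IL_24h. Most of this was Zbtb46, at 5.03 ± 0.397 CPM in IL_TNF_6h, against 1.99 ± 0.533 CPM in IL_6h, and 11.97 ± 6.15 CPM in IL_TNF_24h, against 2.62 ± 0.724 CPM in IL_24h; Cd209a was at 0 in both groups with TNF. Flt3 averaged 0.117 ± 0.0653 CPM in IL_TNF_6h, against 0.401 ± 0.218 CPM in IL_6h. Xcr1 averaged 0.201 ± 0.0986 CPM in IL_TNF_6h, against 0.0644 ± 0.0244 CPM in IL_6h. For the 8 T and NK cell markers, of cells known for Rasgrp1, the sum was also higher where TNF was added to IL-4 and IL-13, without overlap. They summed to 1.22 to 1.65 CPM in IL_TNF_6h, against 0.517 to 1.17 CPM in IL_6h, and to 0.929 to 1.54 CPM in IL_TNF_24h, against 0.446 to 0.565 CPM in IL_24h. With TNF alone they summed to 1.37 to 1.65 CPM in TNF_6h and 2.52 to 4.01 CPM in TNF_24h. The sums in Ctrl_0h were 0.508 to 3.72 CPM with a median of 0.718 CPM, and only Ctrl_0h replicate 2 overlapped. Lck was at 1.01 ± 0.204 CPM in IL_TNF_6h, against 0.306 ± 0.190 CPM in IL_6h, and 0.581 ± 0.110 CPM in IL_TNF_24h, against 0.0636 ± 0.0278 CPM in IL_24h, while Cd3e and Cd3g were at 0 in these 4 groups. Cd2 went the other way at 6 h, at 0.0579 ± 0.0355 CPM in IL_TNF_6h, against 0.191 ± 0.0725 CPM in IL_6h. At 24 h it was at 0.312 ± 0.221 CPM in IL_TNF_24h, against 0.305 ± 0.041 CPM in IL_24h. The part of such cells in the Rasgrp results was not tested.

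Other genes of the pathway were taken from 7 lists of 76 genes. Of 12 other Ras-family exchange factors tested, 5 were called higher and 0 lower in IL_TNF_6h against IL_6h, beside 14.1% of all genes (7.09% higher, 6.98% lower). DESeq2 also called 0 lower, 1 had an unadjusted p under 0.05 in that direction, and 1 was called lower without IL_6h replicate 1. Rapgef2, which acts on Rap, averaged 78.7 ± 4.26 CPM in IL_TNF_6h, against 22.0 ± 2.95 CPM in IL_6h (1.84 ± 0.184, edgeR adjusted p = 6.11e-07). Ralgds, which acts on Ral downstream of Ras, averaged 365.4 ± 48.4 CPM in IL_TNF_6h, against 157.9 ± 23.1 CPM in IL_6h (1.21 ± 0.196, adjusted p = 0.00018).

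Rasgef1b averaged 501.3 ± 39.9 CPM in IL_TNF_6h, against 222.7 ± 15.9 CPM in IL_6h, higher by 1.17 ± 0.147 (edgeR adjusted p = 9.79e-06). In IL_TNF_24h against IL_24h, 2 of the 12 exchange factors were called higher and 2 lower, beside 11.1% of all genes (6.03% higher, 5.08% lower); with 1 library left out at a time the higher count was 1 to 3 and the lower 0 to 1. The higher count was 1 without IL_TNF_24h replicate 1, IL_24h replicate 1 or IL_24h replicate 3. The largest change among those reaching 10 CPM was that of Rapgef5, which acts on Rap and averaged 9.32 ± 2.81 CPM in IL_TNF_24h, against 17.5 ± 0.65 CPM in IL_24h (-0.91 ± 0.278, edgeR adjusted p = 0.039); that call was lost without IL_TNF_24h replicate 1 or 2 or any IL_24h library. Rapgef2 was not called at 24 h, at 0.45 ± 0.18 (adjusted p = 0.135). Rasgef1b was higher there by 0.63 ± 0.146 (adjusted p = 0.00639), and the call of Ralgds (0.68 ± 0.194, adjusted p = 0.0253) was lost without IL_TNF_24h replicate 1, IL_24h replicate 1 or IL_24h replicate 3, with 0.34 without the first. With TNF alone Rapgef2, Ralgds and Rasgef1b rose as well, by 1.80 ± 0.187, 2.51 ± 0.206 and 1.44 ± 0.148 in TNF_6h against Ctrl_0h (adjusted p = 3.03e-07, 1.31e-08 and 2.83e-07).

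Of 9 Ras GTPase-activating proteins other than Rasa1, 1 was called higher and 2 lower in IL_TNF_6h against IL_6h (2 higher without IL_6h replicate 2), and 1 higher and 1 lower in IL_TNF_24h against IL_24h. Over all genes tested, 7.09% were called higher and 6.98% lower at 6 h, and 6.03% and 5.08% at 24 h. Rasa4, which responds to calcium, averaged 420.4 ± 90.9 CPM in IL_TNF_6h, against 235.3 ± 58.5 CPM in IL_6h (0.84 ± 0.175, edgeR adjusted p = 0.0021). Rasa3 went the way of Rasa1, with 77.1 ± 2.13 CPM in IL_TNF_6h, against 146 ± 11.2 CPM in IL_6h (-0.92 ± 0.146, adjusted p = 0.000136). Both kept their direction at 24 h, at 0.75 ± 0.175 for Rasa4 and -0.68 ± 0.145 for Rasa3 in IL_TNF_24h against IL_24h (adjusted p = 0.00667 and 0.00321).

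Of 12 genes that supply or remove diacylglycerol, the lipid that recruits RasGRP proteins, 0 were called higher and 4 lower in IL_TNF_6h against IL_6h, and 0 higher and 2 lower in IL_TNF_24h against IL_24h (1 lower without IL_TNF_24h replicate 1). DESeq2 called 0 higher as well, and 1 at 6 h and 0 at 24 h had an unadjusted p under 0.05 in that direction. The background was 7.09% of all genes higher and 6.98% lower at 6 h, and 6.03% and 5.08% at 24 h. The median log2 fold change of the 12 was 0.0147 at 6 h and -0.138 at 24 h. Plcb2, a phospholipase C that makes diacylglycerol, averaged 38.2 ± 4.84 CPM in IL_TNF_6h, against 70.5 ± 5.66 CPM in IL_6h (-0.88 ± 0.166, edgeR adjusted p = 0.000767). Dgkd, a kinase that removes it, averaged 57.3 ± 5.30 CPM in IL_TNF_6h, against 84.7 ± 7.33 CPM in IL_6h (-0.56 ± 0.101, adjusted p = 0.000484), and was lower in IL_TNF_24h too (-0.70 ± 0.101, adjusted p = 6.37e-05).

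Of 12 Ras GTPases, 2 were called higher and 1 lower in IL_TNF_6h against IL_6h, and 2 higher and 0 lower in IL_TNF_24h against IL_24h. Among all genes tested 7.09% were called higher and 6.98% lower at 6 h, and 6.03% and 5.08% at 24 h. The lower call at 6 h was lost without IL_6h replicate 2 or 3 or IL_TNF_6h replicate 1 or 2, and 1 of the 2 higher calls at 24 h without any of 5 of the 6 libraries. Rras2, a close relative of the classical Ras genes, averaged 13.9 ± 2.16 CPM in IL_TNF_6h, against 6.62 ± 0.857 CPM in IL_6h (1.07 ± 0.219, edgeR adjusted p = 0.00172), and 39.2 ± 5.69 CPM in IL_TNF_24h, against 19.1 ± 1.16 CPM in IL_24h (1.03 ± 0.213, adjusted p = 0.00239). No GTPase was called lower at 24 h by edgeR or DESeq2, and 0 had an unadjusted p under 0.05 in that direction.

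Of 10 Raf, MEK and ERK genes that act downstream of Ras, edgeR and DESeq2 called 0 in either direction in IL_TNF_6h against IL_6h and in IL_TNF_24h against IL_24h, and 0 had an unadjusted p under 0.05 at either time. Without IL_6h replicate 2, edgeR called 1 higher at 6 h. For this list and the 2 that follow, the share called over all genes was 14.1% at 6 h (7.09% higher, 6.98% lower). At 24 h it was 11.1% (6.03% higher, 5.08% lower). Of 12 adaptors upstream of Sos, 1 was called higher and 3 lower in IL_TNF_6h against IL_6h. The lower count was 2 without IL_6h replicate 2 and 0 or 1 without any other library, and the higher count was 0 without IL_6h replicate 3 or IL_TNF_6h replicate 1. In IL_TNF_24h against IL_24h edgeR called 0 adaptors and DESeq2 1 higher and 1 lower, while 1 higher and 4 lower had an unadjusted p under 0.05. Of 4 Sprouty and Spred inhibitors tested, 1 was called higher and 1 lower at 6 h, and 0 higher and 2 lower at 24 h, with 1 lower without IL_TNF_24h replicate 1 or any IL_24h library; the higher call at 6 h was lost without IL_TNF_6h replicate 3.

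By a fixed rule, the 5 genes whose log levels over the 21 libraries were most like each of the pair were found among 9030 genes reaching 10 CPM. For Rasgrp1 they were Flrt3 (r = 0.961), Cd274 (0.95), Zc3h12c (0.94), Rffl (0.938) and Jak2 (0.936). Cd274, which encodes PD-L1, averaged 441.5 CPM in IL_TNF_6h, against 213.3 CPM in IL_6h, and 245.7 CPM in TNF_24h, against 9.11 CPM in Ctrl_0h. For Rasgrp3 they were Zcchc24 (r = 0.966), Tpcn1 (0.948), Slc46a3 (0.947), Wdfy4 (0.935) and Dipk2a (0.931). Tpcn1, an ion channel gene of endosomes and lysosomes, averaged 47.4 CPM in IL_TNF_6h, against 122.8 CPM in IL_6h, and 50.7 CPM in TNF_24h, against 212.5 CPM in Ctrl_0h. The libraries share groups and sets, so these values describe likeness only.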

How the data were processed

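RNA was sequenced from 21 libraries of bone-marrow-derived macrophages, and the deposited values are raw counts per gene, in whole numbers. The submitters' processing notes name TopHat2 2.0.12, Subread 1.6.3 with featureCounts, edgeR 3.28.1 and GRCm38. For annotation, strandedness and the handling of read pairs, details are not given in the sources used. The table holds 2 as a value more often (30373 times) than 1 (17808 times), so fragments may count once per mate and counting floors may be too narrow.

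The software was R 4.3.3 with edgeR 4.0.16, DESeq2 1.42.0 and limma 3.58.1. Of 47069 identifiers, 32832 matched a symbol in a gene table, and 15581 passed filterByExpr of edgeR. Libraries were normalized by TMM, all 21 entered 1 negative binomial model with a coefficient for each group, and 10 pairs of groups and 2 interactions were tested by quasi-likelihood with Benjamini-Hochberg adjustment at 0.05. CPM per kb used merged exon lengths of an older gene annotation, for length only. Correlations used log2 CPM with a prior count of 2. The steps were tested on simulated counts.

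The 8 genes, the pathway and marker lists and the motifs were chosen with earlier results of these data known. The text names these genes in every comparison, from the pathway lists only called genes among the 3 largest changes that reach 10 CPM in the higher group, and the 5 genes most like Rasgrp1 and Rasgrp3. The levels of 1 marker list are not reported here. Xist, Ddx3y and Ifi202b were chosen after their values were seen. Alternatives were other size factors, DESeq2, 2 other filters, a fit of only the groups compared, a block for the replicate number, and libraries left out singly or 3 together.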

Additional observations from a re-analysis of the deposited data

Results flagged for a closer look

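The effect of a treatment differed between 6 and 24 h, by the quasi-likelihood test of edgeR on the difference, for 3 values of the 8 genes. Under TNF alone, where 23.6% of all genes passed, TNF_24h minus TNF_6h was -0.80 for Rasgrp3 and 0.45 for Rasa1 on the log2 scale. The Rasa1 call held in only 1 of 6 fits with 1 library left out. Under IL-4 and IL-13, where 24.0% of all genes passed, IL_24h minus IL_6h was -1.34 for Rasgrp4. This comparison crosses sets of libraries, so time and set cannot be told apart.

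Among the pathway genes named above, TNF_24h minus TNF_6h, where 23.6% of all genes passed, passed the same test at 0.93 for Ralgds, 1.10 for Rapgef2, 0.93 for Rasgef1b, 1.22 for Rras2 and -1.45 for Plcb2. The effect of TNF with IL-4 and IL-13 minus that without them passed it at 6 h, where 18.4% of all genes did, for Ralgds (-1.30), Rras2 (1.20), Rasa4 (-0.76), Rasa3 (-0.91) and Plcb2 (-0.92). At 24 h, where 24.1% of all genes did, it passed for Ralgds (-2.76), Rapgef2 (-2.45), Rapgef5 (-1.92), Rasgef1b (-1.74), Rasa4 (-0.95) and Plcb2 (1.58). The part without IL-4 and IL-13 is measured against untreated cells at 0 h. These genes were named for calls in the part with IL-4 and IL-13, which enters this difference. Passing it therefore carries no separate weight, and the values are a description.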

How the results depend on the processing

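The counts of genes called stayed within 1.5 times of the reported count in all 168 fits of an alternative to a comparison. For Rasgrp1 and Rasgrp3 in IL_TNF_6h against IL_6h and IL_TNF_24h against IL_24h, all alternatives kept the direction, at 1.16 to 1.37 and 2.25 to 2.73 for Rasgrp1 with 1 library left out, and at 1.23 to 1.25 and 2.25 to 2.50 otherwise. DESeq2 size factors shifted the median of all genes by at most 0.0424 in size.

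Among the tested comparisons of the 8 genes, direction turned in 6, none of them called, and the cause was not tested. With 1 library left out at a time, Rasgrf2 spanned -4.00 to 0.14 in TNF_24h against Ctrl_0h, -1.84 to 0.87 in IL_6h against Ctrl_0h and -1.53 to 1.41 in TNF_24h against TNF_6h. In TNF_24h against TNF_6h, Rasgrp1 spanned -0.0137 to 0.248 and Sos2 -0.209 to 0.0668, and in IL_24h against IL_6h Rasa1 spanned -0.245 to 0.0354. With 3 libraries left out together, Rasgrf2 was at 0.16 in TNF_24h and 0.88 in IL_6h against Ctrl_0h. Among the values given as a description, 6 also turned with 1 library left out. In IL_TNF_6h against IL_6h Sos1 spanned -0.0574 to 0.375 and Sos2 -0.219 to 0.145, and in IL_TNF_24h against IL_24h Sos1 spanned -0.0432 to 0.113. The effect of TNF with IL-4 and IL-13 minus that without at 6 h spanned -0.033 to 2.43 for Rasgrp2, -0.40 to 0.043 for Sos1 and -0.647 to 2.58 for Rasgrf2.

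Replicate numbers did not pair the samples: no comparison had all 3 same-numbered correlations above 0.1, and they ran from -0.31 to 0.363. With the replicate number as a block, 2166 genes were called in IL_TNF_6h against IL_6h and 1752 in IL_TNF_24h against IL_24h, beside 2193 and 1731 without it. Under the block, Rasgrp2 lost its call in TNF_6h against Ctrl_0h (-2.02, edgeR adjusted p = 0.0531) and Sos2 gained one in IL_24h against IL_6h (0.49, adjusted p = 0.0436).

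Depth limits Rasgrp2 (475 counts in all libraries), Rasgrf2 (130 counts) and Rasgrp1 in untreated cells (17 counts). Reads of overlapping genes cannot be separated for Rasgrp2, Rasgrp4, Sos1, Sos2 and Rasgrf2 where counting ignored strand.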
